A study of Homo sapiens with 8 samples.

Results

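The comparison set the RNA of LNCaP cells given vesicles from YAP1-depleted EnzaR cells (EV-siYAP1) directly against that of LNCaP cells given vesicles from COUP-TFII-depleted EnzaR cells (EV-siCII). It rested on 2 of the 8 libraries of the series, chosen by their sample labels, with 1 library per condition. LNCaP is a human prostate cancer line that depends on androgen signalling and is sensitive to enzalutamide, an antagonist of the androgen receptor. EnzaR cells are prostate cancer cells resistant to that drug and were grown with 10 uM of it. For the libraries of EnzaR cells, a control siRNA (siNC) or one against YAP1 was applied at 40 nM for 48 h, with 2 libraries each. LNCaP cells received extracellular vesicles (EVs) for 48 h, and the other 2 LNCaP libraries came from cells given vesicles of siNC-treated EnzaR cells (EV-siNC) and from a vehicle control without vesicles (control). The sources used here give neither the dose of vesicles nor the line from which EnzaR cells were derived, and no library of COUP-TFII-depleted EnzaR cells was analysed here. Without replicates of an LNCaP condition no test was made, and the interval or limits given with a ratio are exact at 95% and cover counting error only.

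Extracellular vesicles are membrane-bound particles that carry protein and RNA between cells. YAP1 is a transcriptional co-activator restrained by the kinases of the Hippo pathway. COUP-TFII is an orphan nuclear receptor encoded by NR2F2. Groups of transcripts that recur in the results are p53 targets, which restrain the cell cycle and promote apoptosis or DNA repair, genes of DNA replication and mitosis, which E2F factors and cell-cycle repressor complexes control, and metallothioneins, which bind zinc and are induced through metal response elements.

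The genes targeted in the vesicle-producing cells were at similar levels in the recipient LNCaP cells. YAP1 (ENSG00000137693, chromosome 11, 101981192 to 102104154, hg19) was at 61.1 CPM (counts scaled to the size of the library) in control, 69.3 in EV-siNC, 64.3 in EV-siYAP1 and 68.8 in EV-siCII. The scaling is by TMM, which equalises the bulk of genes between libraries. The log2 ratio of EV-siYAP1 to EV-siCII for YAP1 was -0.10 (interval -0.22 to 0.02). NR2F2 (ENSG00000185551, chromosome 15, 96869167 to 96883492) was at 55.8, 50.5, 53.3 and 52.7 CPM in the same order, with a log2 ratio of 0.02 (interval -0.12 to 0.15). In the EnzaR libraries YAP1 was at 57.4 and 47.5 CPM with siNC and at 5.76 and 7.09 CPM with siRNA against YAP1, which checks that siRNA in those cells.

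The EV-siYAP1 and EV-siCII libraries were close to each other. Of 57905 genes in the table, 8917 had a mean of 10 CPM over both libraries and were compared. The SD of their log2 ratios was 0.174, and 43 genes (0.482%) lay past 1.5-fold, 18 higher (0.202%) and 25 lower (0.28%) in EV-siYAP1. With library sizes scaled by the upper quartile of counts these numbers were 11 and 29, so that 27.5% of the genes past the threshold were higher, against 41.9% with TMM. The balance turned at a log2 threshold of 0.32, with 369 higher and 227 lower genes (61.9% higher), and was even with a floor of 5 CPM, at 79 and 77. At 2-fold there were 0 higher and 1 lower gene. A ratio above 0 was found for 49.8% of genes. The gene just inside the threshold was NCOA5, at a log2 ratio of -0.59 or 1.502-fold, and PCDHB2 lay just outside at -0.58.

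The distance was about that between replicate libraries of the other line. Between the EnzaR siNC replicates the SD was 0.188 and 0.659% of genes lay past 1.5-fold, and between the EnzaR siYAP1 replicates these values were 0.191 and 0.542%. Against EV-siNC, EV-siYAP1 had an SD of 0.177 with 0.57% of genes past 1.5-fold, and EV-siCII an SD of 0.160 with 0.382%. All 3 vesicle libraries lay farther from control, EV-siYAP1 at an SD of 0.299 with 5.75%, EV-siNC at 0.243 with 2.24% and EV-siCII at 0.218 with 1.14%. In these 3 pairs the log2 ratio also moved with GC content across genes (Spearman's rho -0.452, -0.529 and -0.462) and with exonic length (0.293, 0.356 and 0.379), and the part of either in the distance from control was not tested. In the EnzaR replicate pairs, siNC and siYAP1, rho was 0.016 and -0.177 for GC content and -0.154 and 0.487 for exonic length. The part of either in the distance between replicates was not tested. Single genes past 1.5-fold between EV-siYAP1 and EV-siCII were no more frequent than between these replicates, as a description with that limit. Pairs that share a library are not independent.

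**Figure D1:**
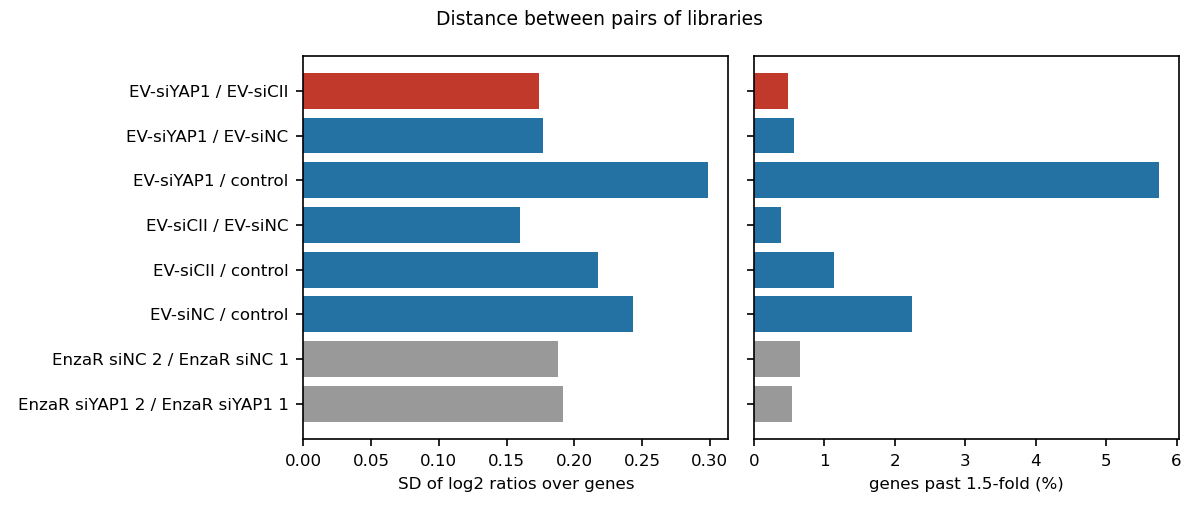
Distance between pairs of libraries, as the SD of log2 ratios over genes (left axis, log2 units) and the percentage of genes past 1.5-fold (right). The red bar is EV-siYAP1 against EV-siCII (0.174 and 0.482%), blue bars are the other pairs of LNCaP libraries, and grey bars are replicate pairs of EnzaR cells, whose SDs of 0.188 and 0.191 lie above the red bar.

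For most genes past the threshold EV-siCII lay nearer to control than EV-siYAP1 did. The control level lay nearer to EV-siCII than to EV-siYAP1 for 15 of the 18 higher genes and 24 of the 25 lower genes, beside 65.8% of all 8917 genes. The 18 higher genes had a median log2 ratio to control of 0.74 in EV-siYAP1 and 0.06 in EV-siCII. The 25 lower genes had -0.76 and -0.03. Each group was chosen by the ratio between these libraries, so a gap between its medians was set by the choice. EV-siYAP1 also lay farther from control than EV-siCII across genes (SD 0.299 against 0.218). Most of the 8917 genes had smaller ratios than these, so the 65.8% is no like baseline. EV-siNC was nearer to EV-siCII for 10 of 18 and 16 of 25 genes, beside 53.9% of all genes. GC content moved with these groups, with a median of 44.1% in the higher genes, 55.7% in the lower genes and 52.3% in all genes compared. Across genes Spearman's rho between the log2 ratio and GC content was -0.208, and 0.019 for exonic length, as a description without a test, since genes are not independent. A smooth correction for both, which took up 8.4% of the variance, left 13 higher and 23 lower genes, and the part of GC content in single ratios was not tested.

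Promoter sequence of 4 genes is shown because the groups they belong to differed in the same direction or by the largest amount between the libraries. Their promoters also hold a match to a motif known from such genes. The sequences are from RefSeq (GRCh38.p14), 5′ to 3′ on the strand of the gene. The stretches run from 150 bases before to 20 bases after the annotated start for FDXR (chr17:74872975-74873144, minus strand), MCM2 (chr3:127598261-127598430, plus strand) and PLK1 (chr16:23678739-23678908, plus strand). For MT2A (chr16:56608334-56608583, plus strand) the 250 bases before the start are given. Capitals mark a single p53 half-site in FDXR, where a full p53 site is a pair of them. FDXR has 2 RefSeq starts of which the first is shown. In the others capitals mark 2 overlapping E2F matches in MCM2, 1 cell-cycle homology region (CHR) in PLK1 and 7 metal response element matches in MT2A. Those in MCM2 lie within the 20 bases after the start.
FDXR: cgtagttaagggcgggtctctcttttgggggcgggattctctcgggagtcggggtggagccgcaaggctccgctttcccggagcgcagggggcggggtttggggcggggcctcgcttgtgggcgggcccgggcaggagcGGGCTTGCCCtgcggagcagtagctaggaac
MCM2: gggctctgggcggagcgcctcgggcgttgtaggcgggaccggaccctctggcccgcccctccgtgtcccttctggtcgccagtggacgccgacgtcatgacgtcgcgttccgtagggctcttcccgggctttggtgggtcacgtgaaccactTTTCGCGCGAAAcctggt
PLK1: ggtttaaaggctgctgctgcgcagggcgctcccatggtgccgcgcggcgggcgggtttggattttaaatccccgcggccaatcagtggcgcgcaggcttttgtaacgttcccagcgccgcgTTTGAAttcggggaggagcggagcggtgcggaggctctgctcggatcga
MT2A: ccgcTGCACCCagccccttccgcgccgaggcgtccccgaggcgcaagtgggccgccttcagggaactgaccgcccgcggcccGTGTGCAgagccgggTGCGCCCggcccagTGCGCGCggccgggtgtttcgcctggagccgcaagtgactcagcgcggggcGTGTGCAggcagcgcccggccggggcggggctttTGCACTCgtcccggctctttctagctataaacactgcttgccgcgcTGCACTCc

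Motifs were searched on both strands of windows of 300 bases, from 250 before to 50 after the start, and a match describes letters, not binding. Of 30 DNA replication genes with a window, 18 (60.0%) held an E2F match (TTTCGCGC, TTTGGCGC or TTTCCCGC), beside 2.75% of all 34961 windows. The CHR letters TTTGAA were in 15 of 24 mitosis genes (62.5%), beside 15.2% of all. The metal response element (TGCACNC or TGCGCNC) was in the 3 metallothionein windows found, those of MT1H, MT1X and MT2A, beside 29.6% of all windows. Overlapping matches of one motif were counted separately. The whole MT2A window held 8 matches, a number reached in 0.0200% of all windows. The p53 half-site was in 3 of 24 p53 target windows (12.5%), those of FDXR, PLK2 and AEN, beside 6.63% of all, and CDKN1A, MDM2, BBC3 and GDF15 were among the windows without one. No match says only that the letters are not in this window.

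p53 target genes were higher in EV-siYAP1 than in EV-siCII. Of the 30 genes on the list 27 were compared, 23 had a ratio above 0 and 4 below, and 6 lay past 1.5-fold higher and 0 lower, where 0.202% of all genes lay past it higher. The counting interval lay above 0 for 20 and below 0 for 1 of them, beside 17.7% and 19.5% of all genes compared. Their median log2 ratio was 0.43 beside near 0 for all genes compared, and over all 30 members it was 0.43 as well, with 25 above and 5 below 0. Against control the median of the 27 was 0.34 in EV-siYAP1, 0.18 in EV-siNC and -0.02 in EV-siCII. Between replicates of the EnzaR groups it was 0.00 and 0.06. The median GC content of the 27 genes was 53.02%, and after the GC and length correction their median ratio was 0.373.

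CDKN1A encodes p21, an inhibitor of cyclin-dependent kinases that arrests the cell cycle. It was at 628 CPM in control, 732 in EV-siNC, 1107 in EV-siYAP1 and 621 in EV-siCII. EV-siYAP1 stood apart from the other 3 libraries, and the log2 ratio to EV-siCII was 0.83 (interval 0.80 to 0.87, chromosome 6, 36644305 to 36655116), the largest among the genes compared. RRM2B, a ribonucleotide reductase subunit that supplies nucleotides for repair, was at 20.8, 30.9, 47.0 and 26.4 CPM in the same order (log2 ratio 0.83, limits 0.67 to 1.00). GADD45A, a stress sensor that acts in repair and arrest, was at 31.2, 37.0, 47.8 and 31.0 CPM (log2 ratio 0.62). For both genes EV-siYAP1 was the highest of the LNCaP libraries and EV-siCII the nearest to control.

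The cytokine gene GDF15 was also higher in EV-siYAP1 than in EV-siCII, but another library stood apart. It was at 1144 CPM in control, 1299 in EV-siNC, 1314 in EV-siYAP1 and 827 in EV-siCII (log2 ratio 0.67, limits 0.64 to 0.70). Here EV-siCII was the library apart, below control. PLK3, a stress-responsive kinase, was likewise lowest in EV-siCII, at 10.4, 14.7, 13.4 and 8.78 CPM (log2 ratio 0.61). BBC3, which encodes the pro-apoptotic protein PUMA, was at 87.0, 86.2, 110 and 72.3 CPM (log2 ratio 0.61), with EV-siYAP1 above and EV-siCII below control and EV-siNC.

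Further targets differed by less than 1.5-fold in the same direction. FDXR, a mitochondrial reductase whose promoter sequence is given above, was at 123, 137, 181 and 126 CPM (log2 ratio 0.53, limits 0.45 to 0.60). BAX, a pore-forming apoptosis protein, had a log2 ratio of 0.51, the ubiquitin ligase gene MDM2 0.49, and the exonuclease gene AEN 0.48. The antiproliferative gene BTG2 and the cyclin gene CCNG1 both had 0.43. In each of these the interval did not hold 0. Among the 4 members below 0 were PLK2 (-0.31) and SESN1 (-0.02), the latter with an interval that held 0.

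**Figure D2:**
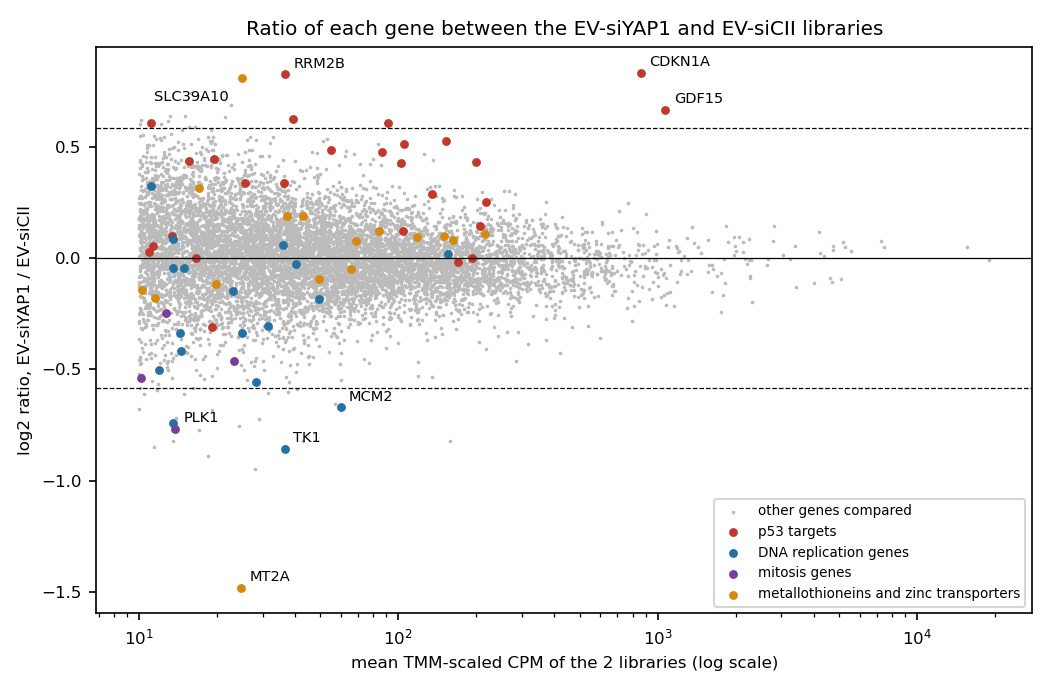
Log2 ratio of EV-siYAP1 to EV-siCII against the mean TMM-scaled CPM of the 2 libraries (log axis), 1 point per gene compared, with dashed lines at 1.5-fold. p53 targets (red) lie mostly above 0, with CDKN1A at 0.83 and GDF15 at 0.67 among highly counted genes, DNA replication (blue) and mitosis genes (purple) lie mostly below, and MT2A is the lowest point at -1.48.

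Genes of DNA replication were lower in EV-siYAP1. Of 34 on the list 18 were compared, 14 with a ratio below 0 and 4 above, and 3 lay past 1.5-fold lower and 0 higher, where 0.28% of all genes lay past it lower. Their median log2 ratio was -0.24 (over all 34 members -0.25, with 23 below and 11 above 0), beside near 0 for all genes compared. The interval lay below 0 for 10 of the 18 and above 0 for 1, where 19.5% of all genes had it below and 17.7% above 0. Against control the median was -0.38 in EV-siYAP1, -0.21 in EV-siNC and -0.03 in EV-siCII, and between EnzaR replicates it was 0.03 and 0.04. After the GC and length correction the median ratio was -0.235.

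TK1, the thymidine kinase of S phase, was at 51.0 CPM in control, 34.9 in EV-siNC, 26.0 in EV-siYAP1 and 47.1 in EV-siCII (log2 ratio -0.86, interval -1.03 to -0.69, chromosome 17, 76170160 to 76183314). MCM2, a subunit of the replicative helicase, was at 76.1, 62.7, 46.3 and 73.7 CPM (log2 ratio -0.67, limits -0.80 to -0.54). Its partner MCM4 was at 17.1, 14.7, 10.1 and 16.99 CPM (log2 ratio -0.74). In all 3 genes EV-siCII was close to control, EV-siNC lower and EV-siYAP1 lowest. MCM3 had a log2 ratio of -0.56, the polymerase subunit gene POLA2 -0.50, the flap endonuclease gene FEN1 -0.42 and MCM5 -0.34. The helicase subunits were not uniform: MCM6 (-0.05) and MCM7 (0.02) had intervals that held 0, as had the sliding clamp gene PCNA (0.06).

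Mitosis genes were scarce in all LNCaP libraries, and 4 of 30 passed the floor of 10 CPM. All 4 had ratios below 0, as had 50.2% of all genes, with a median of -0.50, and 1 lay past 1.5-fold lower, beside 0.28% of all genes. Without mitochondrial transcripts in the library totals CDK1, CCNB1 and TPX2 also passed the floor, and the median of the 7 was -0.315. Over all 30 members 25 were below and 5 above 0, with a median of -0.46. The summed level of the 30 was 182 CPM in control, 152 in EV-siNC, 140 in EV-siYAP1 and 194 in EV-siCII, a log2 ratio of the sums of -0.47 (interval -0.55 to -0.40). EV-siYAP1 was thus the lowest and EV-siCII the highest of the LNCaP libraries. In the EnzaR libraries the sum lay between 2226 and 2343 CPM. In bulk samples fewer cycling cells and less RNA per cell cannot be told apart.

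PLK1, the polo-like kinase of mitotic entry, was at 19.4, 13.1, 10.2 and 17.4 CPM in control, EV-siNC, EV-siYAP1 and EV-siCII (log2 ratio -0.77, limits -1.05 to -0.50, chromosome 16, 23688977 to 23701688). CDC20, an activator of the anaphase-promoting complex, had a log2 ratio of -0.54, and FOXM1, a transcription factor of mitotic genes, -0.46. PRC1, a spindle midzone protein, had -0.24 with an interval that held 0. Below the floor, the kinesin gene KIF2C had 53 counts in EV-siYAP1 and 114 in EV-siCII, and the kinase gene AURKB 69 and 133. CDK1, with 174 and 171 counts, had a log2 ratio of 0.02. The G1 regulators E2F1 and RB1 were also below the floor and were named after their values were seen. The transcription factor gene E2F1 had 109 and 191 counts (log2 ratio -0.81, interval -1.17 to -0.47). RB1, which restrains E2F factors, had 201 and 128 (0.63, interval 0.31 to 0.97). Of the 13 G1 regulators compared 6 were above and 7 below 0, with a median of -0.04. CDKN1A was the member past 1.5-fold, where 0.202% of all genes lay past it higher, and the cyclin gene CCND1 was at -0.10.

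MT2A, a metallothionein, and SLC39A10, a zinc importer, differed in opposite directions, and MT2A was the only metallothionein above the floor of 10 CPM. MT2A (chromosome 16, 56642111 to 56643409) was at 79.2 CPM in control, 17.2 in EV-siNC, 13.0 in EV-siYAP1 and 36.5 in EV-siCII. Its log2 ratio of -1.48 (interval -1.71 to -1.27, 2.79-fold lower in EV-siYAP1) was the lowest of all genes compared. MT1G was at 20.1, 4.29, 2.64 and 9.52 CPM (log2 ratio -1.80, limits -2.35 to -1.37) and did not reach the floor. In both genes control was highest, EV-siCII intermediate and the other vesicle libraries lowest. MT1X had a log2 ratio of -0.55 (interval -1.01 to -0.12) and MT1F of -0.25 with an interval that held 0. These genes resemble one another closely, so reads may be shared between them and single values are uncertain, and MT1A, MT1E, MT1H and MT1M had 0 counts in all LNCaP libraries.

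SLC39A10, which imports zinc into the cytosol, was at 8.25, 32.4, 31.8 and 18.1 CPM (log2 ratio 0.81, limits 0.61 to 1.02, chromosome 2, 196440701 to 196602426). Control was lowest and EV-siCII intermediate, the mirror image of MT2A. Another importer, SLC39A8, had 0.32, and the exporter gene SLC30A1 0.17 with an interval that held 0. Of the 16 genes compared in the list of metallothioneins and zinc transporters, 10 were above and 6 below 0, with a median of 0.09. The counting interval lay above 0 for 9 and below 0 for 1 of the 16, beside 17.7% and 19.5% of all genes. MTF1, the factor that binds metal response elements, was at 19.2, 24.5, 19.1 and 20.7 CPM, with an interval that held 0.

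**Figure D3:**
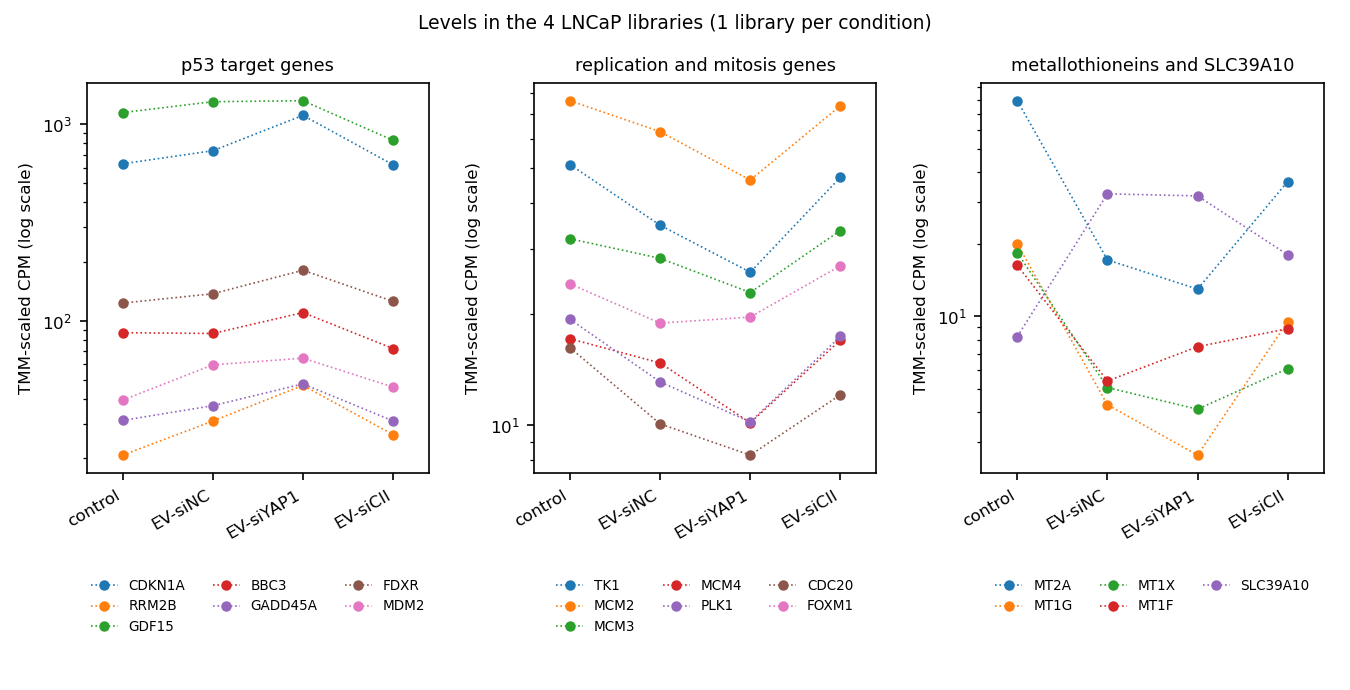
TMM-scaled CPM (log axis) in the 4 LNCaP libraries, 1 point per library and gene, with dotted lines joining the points of a gene and no error bars since each condition has 1 library. CDKN1A peaks in EV-siYAP1 at 1107 CPM, TK1 and MCM2 are lowest there at 26.0 and 46.3 CPM, and MT2A is highest in control at 79.2 CPM, with EV-siCII next at 36.5 CPM.

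Splicing regulators gave a mixed list with a few lower members. Of 23 compared, 9 were above and 14 below 0, with a median of -0.03 and 1 past 1.5-fold lower, beside 50.2% of all genes below 0 and 0.28% past 1.5-fold lower. SRSF2, a serine and arginine-rich splicing factor, was at 56.7, 42.9, 29.9 and 45.4 CPM in control, EV-siNC, EV-siYAP1 and EV-siCII (log2 ratio -0.60, limits -0.76 to -0.44). Its relatives SRSF3 and SRSF1 had log2 ratios of -0.47 and -0.33. EV-siYAP1 was lowest in all 3. The RNA-binding protein gene HNRNPM, named after its values were seen, was at 182, 159, 110 and 160 CPM in the same order, with a log2 ratio of -0.53. LUC7L3, another splicing factor, was higher at 0.29.

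Other genes among those with the highest ratios belong to no single list. ARRDC4, an arrestin-like protein of glucose uptake, was at 11.9, 16.5, 19.97 and 11.9 CPM (log2 ratio 0.74, limits 0.50 to 1.00). CCDC59 had 0.69, and CLDND1, C5orf22 and the small GTPase gene RIT1 had 0.64 each. In these EV-siYAP1 was the highest library. GUCY1B1, a subunit of soluble guanylate cyclase, had 0.62. APLN, the ligand of the apelin receptor, was at 16.3, 18.1, 15.7 and 10.2 CPM (log2 ratio 0.62), and the long noncoding RNA MIR210HG, the host of a hypoxia-induced microRNA, at 16.0, 17.5, 14.7 and 9.63 CPM (0.60). For APLN and MIR210HG EV-siCII was the low library and EV-siYAP1 stood near control.

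Among the genes with the lowest ratios CSRP1, a LIM domain protein of the actin cytoskeleton, was the most highly counted, at 263 CPM in control, 148 in EV-siNC, 115 in EV-siYAP1 and 203 in EV-siCII (log2 ratio -0.82, limits -0.90 to -0.74). AHNAK2, a large scaffold protein, was at 43.2, 27.3, 19.1 and 36.9 CPM (log2 ratio -0.95). Both had the order seen for TK1. IFT46, a component of intraflagellar transport, had -0.89, the guanine nucleotide exchange factor gene PLEKHG4 -0.85, UQCC3, an assembly factor of respiratory complex III, -0.82, and the adhesion receptor gene ADGRB2 -0.82. IL1RN, the interleukin-1 receptor antagonist, had -0.77 and the interferon-induced gene IFITM2 -0.75. NSMCE4A, of the SMC5/6 complex, had -0.72 and the zinc finger gene ZBTB39 -0.68. IFITM2 has near-identical relatives and is uncertain.

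Lists of genes related to the depleted factors had medians near 0, and no list of COUP-TFII targets was made. Of 24 YAP/TAZ targets on the list 11 were compared, 5 above and 6 below 0, with a median of -0.01. The counting interval lay above 0 for 2 and below 0 for 3 of the 11. None of the 11 lay past 1.5-fold, which says little where 0.482% of all genes did. The targets CCN2 and ANKRD1 had 0 counts in both libraries and CCN1 lay below the floor, so the list covers YAP1 activity in part only. Hippo components had 16 above and 9 below 0 with a median of 0.05. The counting interval lay above 0 for 10 and below 0 for 2 of the 25, beside 17.7% and 19.5% of all genes. Among those above 0 were LATS2 (0.51), a kinase that inactivates YAP1, STK3 (0.44), which activates LATS kinases, and their adaptor MOB1A (0.39). TEAD4, a DNA-binding partner of YAP1, had -0.36. LATS2 is also a YAP1 target and a member of both lists. The nuclear receptors related to COUP-TFII and their partners had 6 above and 4 below 0 with a median of 0.01, and RARG (0.18) differed most. Androgen-responsive genes had 11 above and 13 below 0 with a median of -0.01, among them TMPRSS2 (0.29), a serine protease gene of the luminal prostate.

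Hypoxia and glycolysis genes were low in both libraries. Their median log2 ratio to control was -0.36 in EV-siYAP1 and -0.35 in EV-siCII, both against the same control library, and directly between the libraries it was 0.02, with 21 above and 17 below 0. The counting interval lay above 0 for 15 and below 0 for 11 of the 38, and 0 lay past 1.5-fold, beside 0.482% of all genes. The members that differed most lay lower in EV-siCII. NDUFA4L2, a hypoxia-induced mitochondrial protein, was at 284, 280, 157 and 115 CPM (log2 ratio 0.44, limits 0.36 to 0.53), and BHLHE40, a hypoxia-induced repressor, at 30.9, 24.8, 14.7 and 10.7 CPM (0.46). Both were lower in EV-siYAP1 and EV-siCII than in the other 2 LNCaP libraries. In the other direction PKM, the pyruvate kinase of glycolysis, named after its values were seen, was at 2220, 1958, 1609 and 1900.0 CPM (-0.24).

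Of the 38 lists 34 had at least 4 members compared, and for 31 of these the median lay between -0.15 and 0.14. The 3 others were the p53 targets, DNA replication and mitosis lists. Integrated stress response genes had a median of 0.09, with 22 above and 9 below 0. They included DDIT3 (0.40), a pro-apoptotic factor, and ATF5 (-0.51), a transcription factor of the response. Cholesterol synthesis and uptake genes had a median of -0.08, with 6 above and 18 below 0, among them SQLE (-0.29), squalene epoxidase. Cytosolic ribosomal protein genes had 0.07, with 25 above and 5 below 0, where the medians between EnzaR replicates were 0.15 and -0.17. The counting interval lay above 0 for 16 and below 0 for 4 of the integrated stress response genes. For the cholesterol genes these numbers were 3 and 10, and for the ribosomal protein genes 21 and 2, beside 17.7% and 19.5% of all genes. Immediate early genes had 0.14, with 10 above and 4 below 0, interferon and antigen presentation genes 0.06, and nuclear oxidative phosphorylation genes -0.04. The heat shock list had a median of 0.03. Of its 14 members compared 1 lay past 1.5-fold higher, CHORDC1 (0.59), a co-chaperone of HSP90, beside 0.202% of all genes. Genes of vesicle formation in the recipient cells had -0.04, with TSG101, of the ESCRT machinery, at -0.22.

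**Figure D4:**
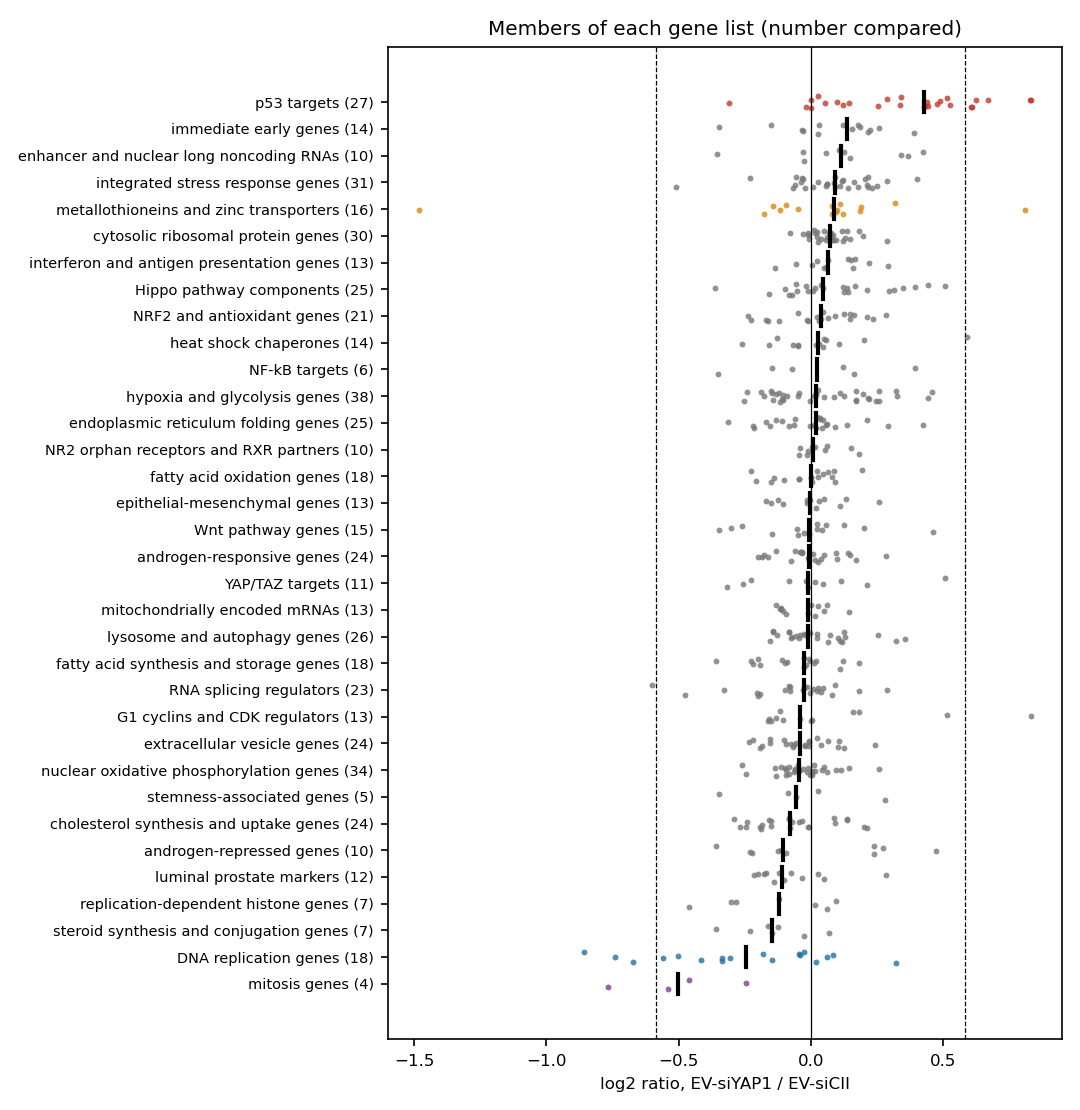
Log2 ratio of EV-siYAP1 to EV-siCII for the members compared (points) of each list with at least 4 of them, with the median as a black bar, the number compared in brackets and dashed lines at 1.5-fold. The p53 targets (red, median 0.43) lie highest, and the DNA replication (blue, -0.24) and mitosis genes (purple, -0.50 over 4 genes, -0.315 over 7 without mitochondrial transcripts in the totals) lowest, while the other medians lie between -0.15 and 0.14.

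The libraries had total counts of 17543894 and 17547773, the other LNCaP libraries 17657484 and 17964615, and mitochondrial transcripts took 4.76% to 5.37% of them. The 12 luminal prostate markers were all compared and summed to 3577 CPM in EV-siYAP1, 3890 in EV-siCII, 3605 in EV-siNC and 3921 in control. Their median ratio was -0.11, with 3 above and 9 below 0, and their part in the results was not tested. Of 8 leukocyte and blood markers PTPRC and CD3E, of leukocytes, and HBB, of red cells, had 0 counts in the LNCaP libraries, and the list summed to 1.02 to 1.74 CPM. Of 8 fibroblast markers DCN and COL1A2 had 0 counts in the vesicle libraries. COL1A1 ranged from 97.6 to 114 CPM over the 4 LNCaP libraries, COL3A1 from 9.18 to 10.9 CPM and PDGFRB from 1.54 to 2.81 CPM. The fibroblast list summed to 110 to 127 CPM. Of 10 markers of other prostate cancer lines 2 were compared, VIM (-0.12) and EPHA2 (0.40), and the list summed to 307 to 326 CPM. Most of that sum was VIM, at 271 to 295 CPM in the LNCaP libraries and at most 2.03 CPM in the EnzaR libraries. KRT7, below the floor, had 13 counts in EV-siYAP1 and 36 in EV-siCII (log2 ratio -1.35, interval -2.52 to -0.53).

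Transcripts of EnzaR cells were looked for in the recipients. There were 10 genes with at least 5 CPM in each EnzaR library and at most 3 counts in the LNCaP control, 9 of them with a name. They summed to 36 counts in EV-siYAP1, 36 in EV-siCII, 33 in EV-siNC and 16 in control, which was part of the choice, beside 2819 and 2769 in the EnzaR siNC libraries. The log2 ratio between EV-siYAP1 and EV-siCII was -0.01 (interval -0.72 to 0.70), so a difference was not detectable at this depth. The sums of EV-siYAP1 and EV-siCII were 1.36% and 1.37% of the mean EnzaR siNC level. The labels do not say that the sequenced EnzaR cells were those that gave the vesicles.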

How the data were processed

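RNA of 8 libraries had been sequenced, and raw read counts per gene were deposited by the authors in 1 table of 57905 Ensembl genes, with coordinates and exonic length per the file headers. Per the submitters' processing notes the tools were HISAT2 2.0.1, HTSeq 0.6.1, cutadapt 1.9.1 and DESeq2, with the build hg19 (GRCh37) and no roles stated. Whether counting used strand is not given in the sources used here, and overlapping and antisense genes cannot be told apart. Deposited FPKM columns were not used. The columns of vesicle-treated cells were matched to samples by their names, which write exo for EV.

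Counts were scaled by TMM (edgeR 4.0.16, R 4.3.3) over the 4 LNCaP libraries, and the EnzaR libraries over their own 4. The log2 ratio, EV-siYAP1 minus EV-siCII, used a prior count of 2, for genes with a mean of 10 CPM, and 1.5-fold as the threshold. A count of 3 equalled 0.169 and 0.170 CPM. Intervals are exact binomial (Clopper-Pearson) at 95% and cover counting error only. With 1 library per condition there was no test, and the labels do not say that the EnzaR replicates were separate cultures. Chi-square divided by its degrees of freedom was 7.58 between the counts of the libraries compared, so neither was a copy of the other. Symbols matched 39538 genes, and 884 of 898 entries of 38 lists matched. The members and lists were chosen with earlier results of these data known, and list medians and counts are descriptions. Named genes are YAP1, NR2F2, the 15 largest ratios per direction with an interval off 0, and up to 6 members of each list described by absolute ratio. Genes outside this rule were chosen after their values were seen: MTF1 and other members named for their role or as the exceptions of a list, those under the floor, NCOA5, PCDHB2, PKM and HNRNPM. Some genes that the rule took are not reported here. GC content came from GENCODE 29 transcripts (GRCh38) by identifier, for 98.9% of genes, and was used with exonic length in a smooth correction (mgcv 1.9.3). The ratio, its interval and the threshold were checked on simulated counts with known folds and counting error only. Chi-square divided by its degrees of freedom was 10.1 and 12.0 between EnzaR replicates. The simulation therefore does not check the intervals for the wider spread of real libraries. Alternatives were other scalings, floors, prior counts and thresholds, and the correction.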

Additional observations from a re-analysis of the deposited data

How the results depend on the processing

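Each condition has 1 library, so no replicate could be left out and no value has a replicate error. No paired analysis was possible because the LNCaP conditions have 1 library each and no test was made. The number of genes past the threshold follows the floor and the fold. With a mean of 5 CPM there were 79 higher and 77 lower genes (156, SD 0.203), with 20 CPM 8 and 12 (20, SD 0.154), and with no floor 2475 and 4043 (6518, SD 0.582), where low counts dominate. At 2-fold there were 0 higher and 1 lower (1), and at a log2 threshold of 0.32 there were 369 and 227 (596). Upper-quartile scaling gave 11 higher genes, and with it the control lay nearer EV-siCII for 97.5% of genes past the threshold, against 90.7% with TMM, in an alternative chosen after seeing the data. Under the 12 alternatives run for list medians the p53 targets had 0.373 to 0.439, DNA replication genes -0.275 to -0.233 and mitosis genes -0.539 to -0.315. The last value came without mitochondrial transcripts in the library totals. With 20 CPM the NF-kB median was -0.109, and with no floor that of androgen-repressed genes changed sign to 0.238. The other 417 list medians moved little, and so did 2918 of 2936 values of single genes. The floor does not enter the ratio of a single gene, so under the other floors these values were unchanged by construction. Another scaling shifts all genes by nearly the same amount. The number of single genes that moved little is therefore no measure of how robust their ratios are. What set the remaining differences was not tested.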
